A study of Mus musculus with 12 samples.

Results

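The genes described here are the nuclear genes of the mitochondrial respiratory chain and ATP synthase, measured in newly made RNA of mouse macrophages. They were chosen by symbol: those starting with Nduf, Uqcr or Atp5, or with Cox followed by a digit from 4 to 8, and Sdha, Sdhb, Sdhc and Sdhd. Probe sets that named more than 1 gene were left out, and of several probe sets for a gene the one with the highest average signal was kept. This gave 89 of the 19937 genes tested: 36 complex I subunits, 7 complex I assembly factors, 4 genes of complex II, 8 of complex III, 17 of complex IV and 17 of ATP synthase. Cox7c and Ndufb4 are named only together with another gene by their probe sets and so are not among the 89.

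There were 12 arrays in 4 groups of 3. Bone marrow-derived macrophages (BMM) came from C57BL/6 marrow and grew in DMEM with fetal calf serum and M-CSF, the growth factor of most tissue macrophages. MPI-2 is a macrophage line from C57BL/6 fetal liver, kept in RPMI with fetal calf serum and GM-CSF, the growth factor that alveolar macrophages need. Each was either mock-treated or given R-LPS, a lipopolysaccharide of bacterial outer membranes that activates macrophages. For 60 min all cells took up 4-thiouridine, a uridine analogue that enters RNA during transcription, and in the LPS groups this began 30 min after LPS and ended at 90 min. MPI-2 is 1 line, and cell type, growth factor and medium differ together between it and BMM, so the part of each in a difference between the 2 kinds of cell cannot be told apart; nor can that of any array batch. Titles give biological replicates but name neither animals nor cultures. A p-value here rests on the spread between such samples within groups, pooled over all 4 groups, and some of that spread may be technical.

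The respiratory chain passes electrons from NADH (through complex I) and succinate (through complex II) by way of ubiquinone to complex III, then by cytochrome c to complex IV, which reduces oxygen. Complexes I, III and IV pump protons out of the mitochondrial matrix, and ATP synthase uses their return to make ATP. Complex II is also succinate dehydrogenase of the citric acid cycle and is the only complex with no subunit encoded in mitochondrial DNA. In macrophages, activation by LPS is known to shift metabolism from respiration towards glycolysis, with oxidation of succinate by complex II feeding signals from the mitochondria, and nuclear respiratory chain genes are known targets of the transcription factors NRF1, GABP and YY1.

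Values are the deposited log2 levels. A gene is said to be called, and to have risen or fallen or to be higher or lower, where limma's Benjamini-Hochberg adjusted p over all 19937 genes was under 0.05; differences carry their standard error (SE) and group levels the SD of 3 arrays. A background level of 3.36 was set from olfactory receptor genes, and 81 of the 89 genes had a mean above it, against 12030 (60.3%) of all genes. The 8 under it were not counted as expressed. All 8 macrophage markers examined, among them Adgre1, Cd68 and Csf1r, lay above background in every group, but not at 1 level: their array means were 9.09 to 9.17 in BMM mock, 8.20 to 8.45 in BMM LPS, 8.01 to 8.18 in MPI-2 mock and 7.86 to 7.87 in MPI-2 LPS. The 5 markers of macrophages in GM-CSF, which include Marco and Siglecf, averaged 4.55 to 4.96 over the BMM arrays and 7.21 to 8.10 over the MPI-2 arrays. Markers of T, B, mast and erythroid cells, neutrophils and hepatocytes averaged 2.51 to 3.76, near or under background. Megakaryocyte markers (Pf4, Gp9, Itga2b) averaged 4.52 to 5.12 in BMM and 3.06 to 3.26 in MPI-2, with 3 of 3 above background in BMM and 1 in MPI-2. Of fibroblasts, 4 markers, most of them collagen genes, averaged 3.85 to 4.33 in BMM and 3.52 to 3.93 in MPI-2. The part of any of these marker differences in the results was not tested.

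Arrays of MPI-2 were more alike than those of BMM. The median SD of the 89 genes was 0.117 in MPI-2 mock and 0.109 in MPI-2 LPS, and 0.213 and 0.265 in BMM mock and BMM LPS. The test uses 1 estimate of spread per gene for all 4 groups. The wider BMM spread thus enters the SE of MPI-2 comparisons, and the narrower MPI-2 spread that of BMM comparisons. The interquartile range of all log2 values also differed: 2.38 to 2.69 in BMM LPS, 2.78 to 2.88 in BMM mock, 2.95 to 3.04 in MPI-2 LPS and 3.06 to 3.21 in MPI-2 mock. Its part in the results was not tested, and counts after further scaling between arrays are given beside those from the values as deposited. Below, an array is written as its group and replicate number, so that BMM LPS 3 is replicate 3 of that group. BMM mock 1 and BMM LPS 3 correlated least with the other arrays of their groups. Precision is limited by the number of arrays. In such bulk samples fewer cells of a kind and less RNA per cell cannot be told apart.

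Respiratory chain genes were more often higher than lower in MPI-2. In mock cells 37 of the 89 were higher in MPI-2 than in BMM and 7 were lower, with a median difference of log2 0.35, while of all genes 20.6% were higher and 18% lower, with a median of -0.10. Since most of the 89 are expressed, the genes above background are the closer measure: of 12030 such genes 33.2% were higher and 23% lower (median 0.03), against 37 and 5 of the 81 respiratory chain genes above background (median 0.43). In LPS-treated cells 42 were higher and 2 lower (median 0.41), beside 22.5% and 21.6% of all genes (median -0.14), and among genes above background 36.5% and 23.6% (median 0.06) against 42 and 2 of 81 (median 0.52). The comparisons in mock and in LPS use different arrays. Of the 89, 32 genes were higher in both, and Ndufa7 and Sdhc were lower in both. How many of all genes were called in both was not counted, so these joint counts are read as no result about the group. Quantile normalization of the deposited values left 28 higher and 5 lower in mock and 29 and 6 in LPS, and cyclic loess 27 and 8, and 27 and 6. Among all genes in mock, 4108 higher and 3579 lower became 3499 and 2923 after quantile normalization and 3562 and 3080 after cyclic loess. In LPS, 4488 and 4312 became 3732 and 3658, and 3601 and 3554. The medians after cyclic loess were 0.23 in mock and 0.19 in LPS, against -0.02 and -0.03 for all genes, and cyclic loess moved the median of all genes in LPS from -0.14 to -0.03. The count of 7 lower in mock was 4 without BMM mock 1 and 3 without MPI-2 mock 2; the 2 lower in LPS were 1 without BMM LPS 1 or MPI-2 LPS 3, 0 without BMM LPS 2 and 5 without BMM LPS 3.

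**Figure D1:**
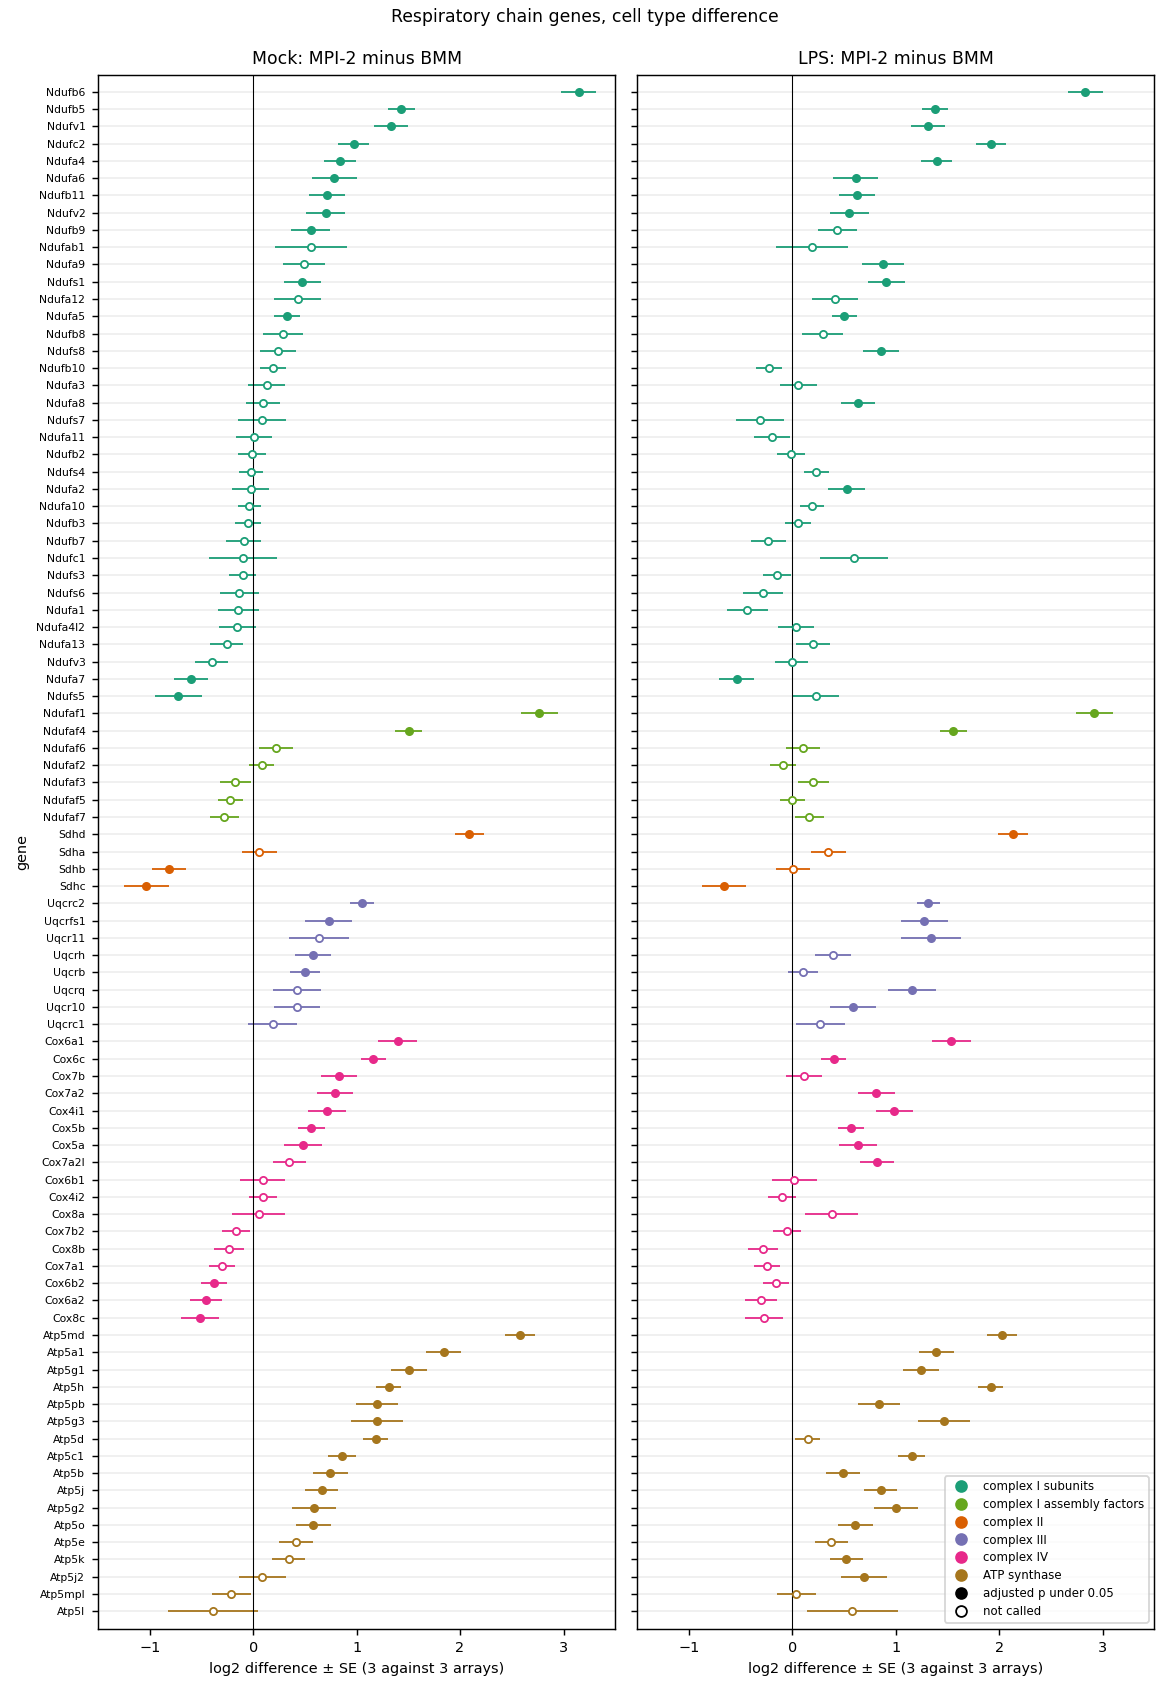
Difference between MPI-2 and BMM (log2, horizontal axis, with SE, 3 against 3 arrays) for each of the 89 genes (vertical axis, sorted within each complex by the mock value), in mock cells (left) and LPS-treated cells (right); filled points have an adjusted p under 0.05. Most filled points lie right of 0, and those of complex II lie on both sides of it.

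The same values can be set out by array. After each gene's mean over the 12 arrays was subtracted, the median was -0.17 to 0.05 on the BMM mock arrays, -0.39 to -0.20 on the BMM LPS arrays, 0.21 to 0.26 on the MPI-2 mock arrays and 0.09 to 0.11 on the MPI-2 LPS arrays. All 6 MPI-2 arrays lay above all 6 BMM arrays, and within a cell type the LPS arrays lay below the mock arrays.

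Complex I is the entry point for electrons from NADH and the largest complex. Of its 36 subunits, 11 were higher and 2 lower in MPI-2 mock, and 14 and 1 in LPS (medians 0.11 and 0.26). They were grouped by symbol and so include Ndufa4, now counted with complex IV, which was higher in both states. These are 30.6% and 38.9% higher, near the 33.2% and 36.5% of all genes above background, while 5.56% and 2.78% were lower against 23% and 23.6%. The sets are not quite alike, since the 36 include Ndufa4l2, Ndufb2 and Ndufb10, whose means lay under background and which were not called. Ndufb6, an accessory subunit, had the largest difference of the 89: it read 4.71, 4.93 and 4.97 in BMM mock and 8.29, 7.96 and 7.79 in MPI-2 mock, and 4.40, 5.07 and 4.72 in BMM LPS and 7.59, 7.60 and 7.49 in MPI-2 LPS. The groups of the 2 cell types did not overlap, and the difference was 3.15 ± 0.17 in mock (8.85-fold, adjusted p = 5.84e-10) and 2.83 ± 0.17 in LPS (7.12-fold, adjusted p = 1.48e-09). Of the others, Ndufb5 was higher by 1.43 ± 0.13 in mock, Ndufv1, which binds NADH and the flavin, by 1.33 ± 0.16, and Ndufc2 by 0.97 ± 0.15 in mock and 1.92 ± 0.15 in LPS. Ndufa7 went the other way, at -0.60 ± 0.17 in mock and -0.54 ± 0.17 in LPS, though the first call ended without MPI-2 mock 2 (-0.42) and the second without BMM LPS 2 (-0.44). Ndufs5, also called lower in mock (-0.72 ± 0.22), had a MPI-2 mock mean of 3.17, under background; the call ended after quantile normalization (-0.53) or cyclic loess (-0.52) and without BMM mock 3 (-0.47), MPI-2 mock 1 or MPI-2 mock 3 (both -0.69).

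Assembly factors of complex I are not part of the finished enzyme. Of 7, Ndufaf1 and Ndufaf4 were higher in MPI-2 in both states and the other 5 were called in neither. The share higher, 28.6%, was under the 33.2% (mock) and 36.5% (LPS) of genes above background. Ndufaf1 read 5.06, 5.71 and 5.16 in BMM mock and 8.29, 7.89 and 8.05 in MPI-2 mock, a difference of 2.77 ± 0.18 (6.81-fold, adjusted p = 5.43e-09), and in LPS the difference was 2.92 ± 0.18, the largest of the 89 in that state. Ndufaf4 read 4.94, 4.90 and 4.85 in BMM mock and 6.28, 6.47 and 6.45 in MPI-2 mock, a difference of 1.50 ± 0.13 (adjusted p = 1.46e-07). The other 5 factors differed by -0.28 to 0.22 in mock.

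The 4 genes of complex II did not move together. Sdhd, which encodes 1 of the membrane anchors that hold the ubiquinone site, read 6.29, 6.32 and 6.02 in BMM mock and 8.33, 8.35 and 8.21 in MPI-2 mock, so that it was 4.25-fold higher in MPI-2 (2.09 ± 0.14, adjusted p = 9.19e-09). The other membrane anchor, Sdhc, read 7.68, 6.82 and 6.83 in BMM mock and 6.07, 6.08 and 6.08 in MPI-2 mock and was 2.04-fold lower (-1.03 ± 0.21, adjusted p = 0.0011). Sdhb, the iron-sulfur subunit, read 6.41, 6.10 and 5.75 in BMM mock and 5.34, 5.18 and 5.30 in MPI-2 mock and was 1.76-fold lower (-0.81 ± 0.16, adjusted p = 0.000845). None of these 3 genes' mock groups overlapped, and the 3 calls held under all 21 alternatives run. Sdha, the flavoprotein that oxidises succinate, had means of 7.55 ± 0.36 in BMM mock and 7.61 ± 0.17 in MPI-2 mock (SD, n = 3), and the difference of 0.06 ± 0.17 did not pass (adjusted p = 0.805).

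In LPS-treated cells Sdhd was 4.39-fold higher in MPI-2 (2.13 ± 0.14) and Sdhc lower (-0.66 ± 0.21, adjusted p = 0.0211), a call lost without BMM LPS 1 (-0.53) or 2 (-0.58) or MPI-2 LPS 3 (-0.55). Sdhb had nearly equal means in the 2 cell types, 4.88 ± 0.23 in BMM LPS and 4.89 ± 0.12 in MPI-2 LPS, and Sdha differed by 0.35 ± 0.17 (adjusted p = 0.103). Each of the 4 genes is measured by 1 probe set.

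**Figure D2:**
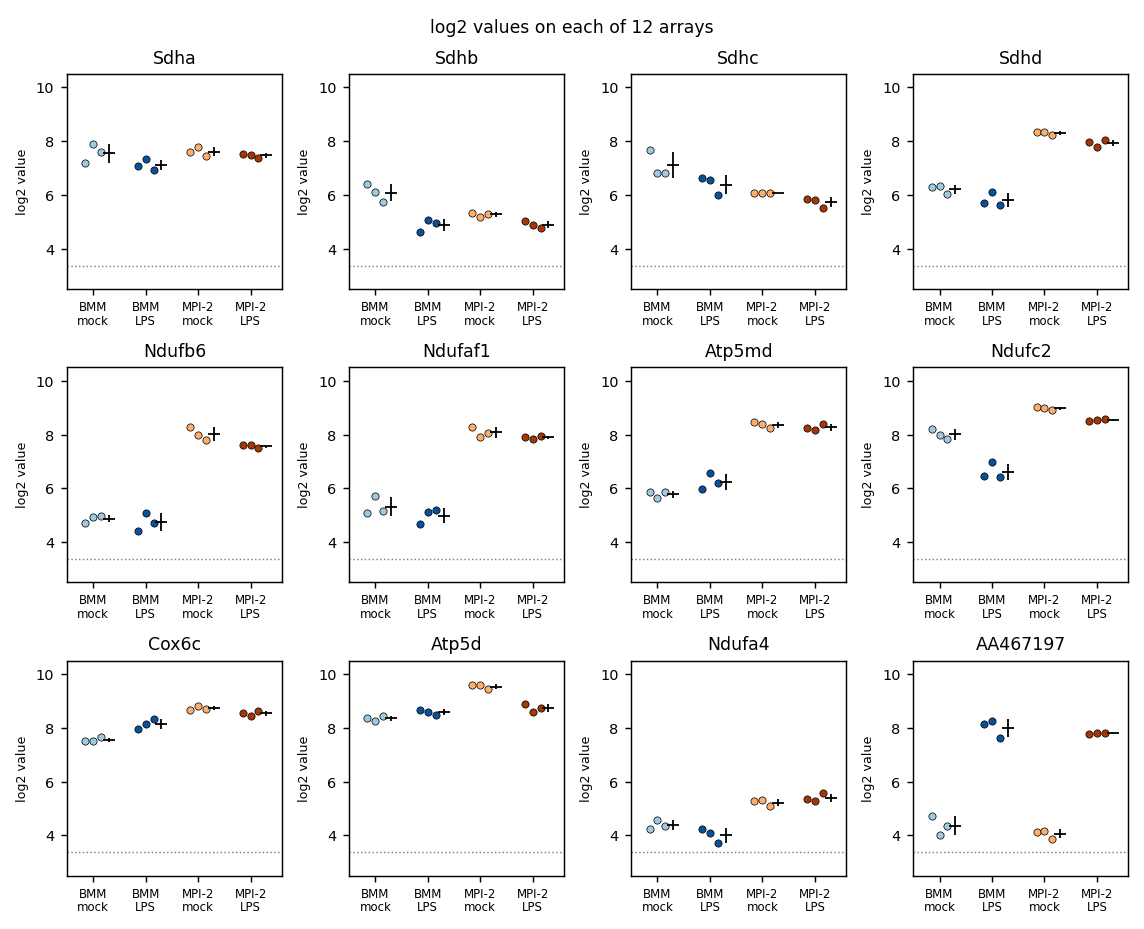
log2 values (vertical axis) of 12 genes on each array (points) with the mean and SD of each group of 3 (bars beside the points); the dotted line is the background level. Sdhd, Ndufb6, Ndufaf1 and Atp5md are higher on every MPI-2 array than on every BMM array, and AA467197 is high on the LPS arrays of both cell types.

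Complex III was higher or not called. Of its 8 genes 4 (50%) were higher in MPI-2 mock and 5 (62.5%) in LPS, beside 33.2% and 36.5% of genes above background. None was lower, and all 8 differences were above 0 in both states (medians 0.54 and 0.87). This holds for the probe sets used: of the genes called higher in LPS, Uqcr11 (1.34 ± 0.29) has another probe set that gave -0.01 in mock and -0.13 in LPS. Uqcrc2, a core subunit facing the matrix that was singled out after its values were seen, read 7.56, 7.80 and 7.57 in BMM mock and 8.75, 8.74 and 8.59 in MPI-2 mock, a difference of 1.05 ± 0.11 (adjusted p = 1.73e-06). The other core subunit, Uqcrc1, differed by 0.19 ± 0.24 (adjusted p = 0.565). Uqcrfs1, the Rieske iron-sulfur protein, was higher by 1.28 ± 0.23 in LPS; in mock its groups overlapped (0.73 ± 0.23) and the call ended after either scaling (both 0.57) and without BMM mock 2 or 3 (both 0.56) or MPI-2 mock 1 (0.64). Cyc1, the cytochrome c1 of this complex, whose symbol lies outside the rule, was higher by 0.74 ± 0.19 in mock and by 0.55 ± 0.19 in LPS, the second not called without BMM LPS 3 (0.28), MPI-2 LPS 1 (0.53) or MPI-2 LPS 3 (0.49), or after quantile normalization (0.25) or cyclic loess (0.24).

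In complex IV, genes called higher in MPI-2 mock were common isoforms or subunits with a single form, and those called lower were tissue-restricted isoforms. Of the 17 genes 7 (41.2%) were higher and 3 (17.6%) lower in MPI-2 mock, and 7 (41.2%) and 0 in LPS. Among genes above background 33.2% were higher and 23% lower in mock, and 36.5% and 23.6% in LPS. The 17 include Cox6b2, Cox7a1, Cox7b2, Cox8b and Cox8c, whose means lay under background, so the sets compared are not alike. None of these was called higher in MPI-2, and Cox6b2 and Cox8c were called lower in mock. Cox6a1, the widespread form of subunit 6a, read 4.95, 4.38 and 4.69 in BMM mock and 6.28, 6.32 and 5.60 in MPI-2 mock, a difference of 1.40 ± 0.19 (adjusted p = 2.29e-05), and Cox4i1 and Cox7a2 were higher by 0.71 ± 0.18 and 0.79 ± 0.18. Cox7b was higher by 0.83 ± 0.17 in mock, but not called after cyclic loess (0.49), while Cox6b1 (0.09 ± 0.22) and Cox8a (0.05 ± 0.26) did not pass. Cox5a passed in mock at 0.48 ± 0.18 (adjusted p = 0.0469), but lost its call in 11 of 21 alternatives (0.22 to 0.62), among them those without BMM mock 2 (0.50) or 3 (0.33) or any of MPI-2 mock 1 (0.47), 2 (0.47) and 3 (0.51) and of MPI-2 LPS 1, 2 and 3 (0.48 each).

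Most of their tissue-restricted counterparts, known from heart and skeletal muscle, testis or lung, were near or under background, with Cox6a2 above it at group means of 4.42 to 5.03. Cox7a1, Cox7b2 and Cox8b, with Ndufa4l2 of the Ndufa4 family, lay under it in every group, at means of 2.10 to 3.19. The 3 genes of complex IV called lower in MPI-2 mock were of this kind. Cox6a2 differed by -0.46 ± 0.16 (adjusted p = 0.0303), with overlapping groups, Cox6b2 by -0.38 ± 0.13 between means of 3.34 and 2.96, both under background, and Cox8c by -0.52 ± 0.18 between 3.58 and 3.06, the second under background. Each call ended after quantile normalization (-0.44, -0.21 and -0.34), without BMM mock 1 (-0.30, -0.34 and -0.31) and without MPI-2 mock 2 (-0.41, -0.30 and -0.44); Cox6a2 and Cox6b2 also did so without BMM mock 2 (-0.46 and -0.38), Cox6a2 and Cox8c without MPI-2 mock 3 (-0.43 and -0.54), and Cox8c without MPI-2 mock 1 (-0.57). Cox4i2, the form tied to low oxygen and lung, had means of 3.69 to 3.82 and was called in no comparison.

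ATP synthase had the largest share of genes called higher. Of its 17 genes 12 were higher in MPI-2 mock and 13 in LPS, with none lower (medians 0.75 and 0.84). These are 70.6% and 76.5% higher, beside 33.2% and 36.5% of genes above background. Atp5md, a small membrane subunit, read 5.84, 5.62 and 5.86 in BMM mock and 8.45, 8.40 and 8.23 in MPI-2 mock, a difference of 2.58 ± 0.15 (5.98-fold, adjusted p = 1.32e-09), and its other probe sets gave 0.60 and 2.78. Atp5a1, the alpha subunit of the catalytic head, read 7.63, 8.21 and 7.77 against 9.90, 9.62 and 9.61 (1.84 ± 0.17), and Atp5b, the beta subunit, was higher by 0.75 ± 0.17 but not called after cyclic loess (0.39). The genes of subunit c, which forms the rotor ring, were called higher too by the probe sets used. In mock the differences were 1.50 ± 0.17 for Atp5g1, 1.20 ± 0.25 for Atp5g3 and 0.59 for Atp5g2. Other probe sets of Atp5g2 gave -0.31 and 0.36 in mock and -0.26 and 0.40 in LPS, so its sign depended on the probe set. Atp5l, singled out after its values were seen, showed 8.01 on BMM mock 1 against 5.93 and 5.82 on the others and was not called (-0.39 ± 0.44). Atpif1, the inhibitor of ATP synthase and not among the 89, was lower in MPI-2: it read 8.77, 8.20 and 8.79 in BMM mock and 7.27, 7.43 and 7.26 in MPI-2 mock (-1.26 ± 0.16, adjusted p = 1.24e-05), and its LPS difference was -1.28 ± 0.16.

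Promoter stretches are shown for Ndufb6, Ndufaf1, Atp5md and Sdhd, whose cell type differences were the largest in both states by the probe sets used. For Atp5md the other probe sets gave 0.60 and 2.78 in mock and 1.32 and 2.32 in LPS. Also shown are Ndufaf4, 7th in both states, and the other complex II genes with an entry, since the genes of that complex went apart. The letters at their starts can thus be set side by side. RefSeq promoter windows of GRCm38.p6 (250 bases before to 50 after the start) were given for 73 of the 89 genes, 78 windows in all. The stretches below run from 130 bases before to 20 after the start, 5′ to 3′ on the strand of the gene; capitals mark matches, on either strand, to 5 short words: GCGCATGC (the core of the NRF1 motif), CCGGAAG (the ETS core that GABP binds), AAGATGG (the YY1 core), GGGCGG (the GC box) and TATAAA (the TATA box).
Ndufb6 (chr4:40279402-40279551, minus strand): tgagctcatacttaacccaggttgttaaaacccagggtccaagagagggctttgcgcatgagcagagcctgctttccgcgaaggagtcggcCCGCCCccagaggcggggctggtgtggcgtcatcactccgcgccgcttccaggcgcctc
Ndufaf1 (chr2:119662815-119662964, minus strand): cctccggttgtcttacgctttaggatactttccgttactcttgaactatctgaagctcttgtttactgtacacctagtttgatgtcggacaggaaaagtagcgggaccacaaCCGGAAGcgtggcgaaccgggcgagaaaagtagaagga
Ndufaf4 (chr4:24897953-24898102, plus strand): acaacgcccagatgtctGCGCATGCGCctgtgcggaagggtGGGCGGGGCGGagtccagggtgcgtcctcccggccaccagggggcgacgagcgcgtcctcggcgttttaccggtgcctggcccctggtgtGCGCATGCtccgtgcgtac
Atp5md (chr19:47090628-47090777, minus strand): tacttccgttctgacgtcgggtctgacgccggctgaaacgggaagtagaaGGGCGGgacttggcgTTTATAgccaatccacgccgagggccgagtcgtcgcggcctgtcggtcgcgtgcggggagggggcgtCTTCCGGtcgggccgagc
Sdhd (chr9:50603830-50603979, minus strand): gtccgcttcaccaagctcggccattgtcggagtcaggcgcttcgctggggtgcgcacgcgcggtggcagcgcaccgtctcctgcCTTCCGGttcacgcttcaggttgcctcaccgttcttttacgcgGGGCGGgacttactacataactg
Sdhb (chr4:140961141-140961290, plus strand): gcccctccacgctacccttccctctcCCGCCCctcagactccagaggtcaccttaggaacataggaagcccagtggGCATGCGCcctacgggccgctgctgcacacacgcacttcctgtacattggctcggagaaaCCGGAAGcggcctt
Sdha (chr13:74350221-74350370, minus strand): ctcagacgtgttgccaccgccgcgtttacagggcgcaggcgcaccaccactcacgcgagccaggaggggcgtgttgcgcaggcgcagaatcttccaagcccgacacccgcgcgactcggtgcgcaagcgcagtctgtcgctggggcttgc

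The words differed in how often they occurred in these windows. The NRF1 core was found in 15.4% of the 78 windows, against 2.71% of all 32851 windows in the table and 3.78% of the windows of tested genes. The ETS core was found in 23.1%, against 8.86% and 12.1%, and the YY1 core in 12.8%, against 6.34% and 6.25%. The GC box stood in 43.6% (35.7% and 49.2%) and the TATA box in 11.5% (13.6% and 11.5%). Of the genes higher in MPI-2 in both states, 27 had a window, and of these 4 had the NRF1 core and 7 the ETS core, and of the 46 other genes 8 and 11. Of the complex II genes with an entry, Sdhb held an NRF1 core, an ETS core and a GC box in the stretch, Sdhd an ETS core and a GC box, and Sdha none of the 5 words. The stretch of Ndufc2, ranked 5th in LPS and not printed, also held none of the 5 words. A match is a description of letters and shows no binding.

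LPS in BMM lowered some respiratory chain genes. Of the 89, 19 fell and 2 rose, with a median of -0.20, beside 15.4% lower and 10.3% higher among all genes (median 0.04). Among genes above background 24.5% fell and 14.3% rose (median -0.08), so that the 19 of 81 lower was near the share of expressed genes in general, and the counts are read as no result about this group. After quantile normalization 9 fell and 2 rose, after cyclic loess 7 and 2, and in a fit of only the 6 BMM arrays 8 and 1. Among all genes 3061 fell and 2053 rose as deposited. In the same order, the alternatives gave 2597 and 2378, 2427 and 2412, and 2143 and 1321. The 2 that rose were 1 without BMM mock 2 or BMM LPS 2.

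Of 18 called genes that were examined singly, 8 kept their call under all 21 alternatives. Ndufc2, an accessory subunit of complex I, read 8.22, 7.97 and 7.83 in BMM mock and 6.46, 6.96 and 6.44 in BMM LPS, with no overlap, and fell 2.62-fold (-1.39 ± 0.15, adjusted p = 2.96e-06). Sdhb fell 2.31-fold, from the mock values above to 4.63, 5.08 and 4.94 (-1.21 ± 0.16, adjusted p = 3.69e-05). Ndufs8, an iron-sulfur subunit of complex I, fell (-0.89 ± 0.17) with Ndufa8 (-0.87 ± 0.17) and Ndufv3 (-0.74 ± 0.16), and of ATP synthase Atp5h, in the peripheral stalk (-0.81 ± 0.12), and Atp5c1, the gamma subunit of the rotor (-0.63 ± 0.13). Cox6c, a small subunit of complex IV, rose: it read 7.52, 7.52 and 7.65 in mock and 7.96, 8.13 and 8.32 with LPS (0.57 ± 0.12, adjusted p = 0.00212), and its other probe set gave 0.42.

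In complex II, 3 of 4 genes were called lower in BMM, but Sdhc (-0.73 ± 0.21) was not called after quantile normalization (-0.62) or cyclic loess (-0.53), nor without BMM mock 1 (-0.44) or BMM LPS 3 (-0.53), and Sdhd (-0.41 ± 0.14, adjusted p = 0.0445, overlapping groups) was not called in 16 of 21 alternatives (-0.55 to -0.23), among them those without BMM mock 1 (-0.37) or 2 (-0.36), BMM LPS 1 (-0.35) or 3 (-0.32) and any MPI-2 array (-0.41 each). Sdha differed by -0.43 ± 0.17 (adjusted p = 0.0728). Of genes above background 24.5% fell, and the count in 4 genes is read as no result about complex II. Uqcrq of complex III (-0.80 ± 0.23) was not called after either scaling (-0.72 and -0.58), nor without BMM mock 1 (-0.46) or BMM LPS 3 (-0.66). Atp5md, called higher (0.46 ± 0.15), was not called without BMM mock 2 (0.38) or BMM LPS 2 (0.30) or with the mean of its probe sets (0.11), and its other probe sets gave -0.68 and 0.55.

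In MPI-2, LPS lowered 4 of the 89 genes and raised 0, with a median of -0.13. Of all genes 9.58% fell and 5.17% rose (median 0.02). Of 12030 genes above background 1861 fell and 965 rose (median -0.03), against 4 and 0 of the 81 respiratory chain genes above background. Of these 81, 17 had an unadjusted p under 0.05, beside 4374 of the 12030. Ndufv2, an iron-sulfur subunit at the NADH end of complex I, read 7.59, 7.50 and 7.44 in mock and 6.82, 6.48 and 6.80 with LPS (-0.81 ± 0.19, adjusted p = 0.00696). Atp5d, the delta subunit of the ATP synthase rotor, read 9.59, 9.59 and 9.43 in mock and 8.89, 8.57 and 8.75 with LPS and fell 1.74-fold (-0.80 ± 0.12, adjusted p = 0.000226). Ndufb5 fell too (-0.52 ± 0.13, adjusted p = 0.00956), as did Ndufb11 (-0.60 ± 0.17, adjusted p = 0.0268), whose call ended when MPI-2 mock 2 (-0.61) or 3 (-0.50) or MPI-2 LPS 1 (-0.52), 2 (-0.65) or 3 (-0.64) was left out. After quantile normalization neither was called (-0.41 and -0.52). With the 6 MPI-2 arrays alone, whose spread is smaller, 18 fell and 4 rose, and with weights per array 17 and 4. Calls among all genes grew too, from 1910 lower and 1031 higher to 3172 and 1854, and to 3243 and 1940. The count lower was 7 without BMM LPS 2, and the count higher was 2 without BMM mock 1 and 1 without BMM LPS 3. Leaving out both BMM mock 1 and BMM LPS 3, a choice made after the data were seen, 12 fell and 2 rose in MPI-2. Of all genes 2657 fell and 1472 rose in that fit.

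Ndufv2, Ndufb5 and Ndufb11 were called lower in both cell types. How many of all genes were lower in both was not counted. In BMM they changed by -0.66 ± 0.19, -0.47 ± 0.13 and -0.51 ± 0.17. After quantile normalization (-0.55, -0.38 and -0.34), cyclic loess (-0.50, -0.24 and -0.29) or a fit of only the BMM arrays none of the 3 was called in BMM. Ndufv2 was also not called there without BMM mock 2 (-0.62) or BMM LPS 1 (-0.55) or 2 (-0.50), and Ndufb11 without BMM mock 1 (-0.46) or 3 (-0.44), BMM LPS 3 (-0.32), MPI-2 mock 2, MPI-2 LPS 2 or MPI-2 LPS 3 (-0.51 each).

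**Figure D3:**
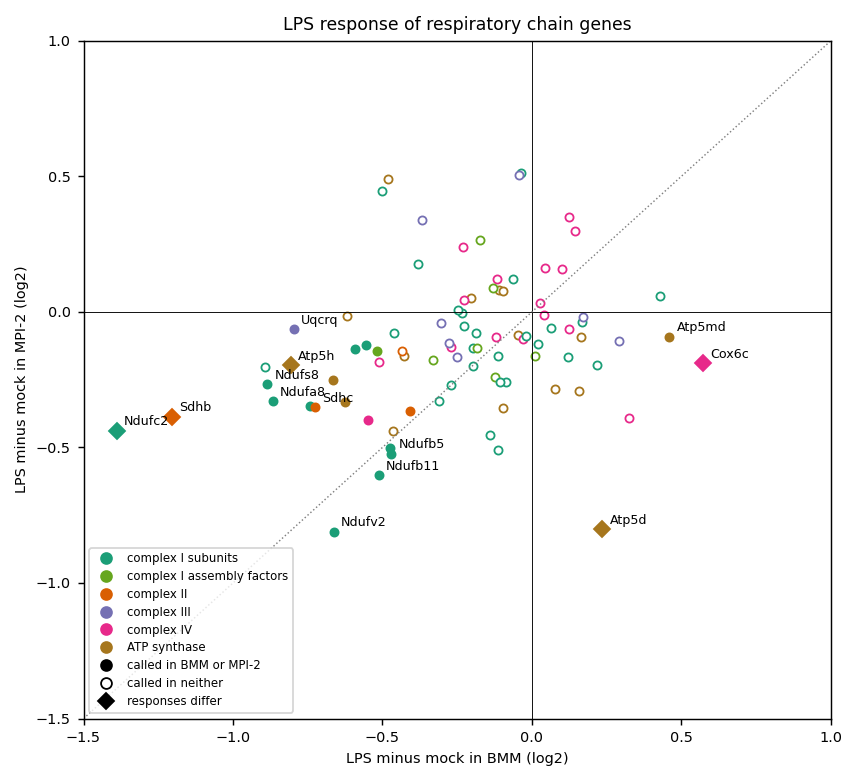
LPS response (LPS minus mock, log2) of each of the 89 genes in BMM (horizontal axis) and in MPI-2 (vertical axis); filled points were called in either cell type, diamonds mark the 5 genes whose responses differed, and the dotted line marks equal responses. Ndufc2, Sdhb and Atp5h lie left of and above the line, and Atp5d and Cox6c right of and below it.

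The responses of 5 genes differed between the cell types by the test of the difference itself. Among all genes 7.08% had a response higher in MPI-2 and 6.27% one lower, against 3 and 2 of the 89. Atp5d differed by 0.24 ± 0.12 in BMM, where it read 8.36, 8.27 and 8.43 in mock and 8.68, 8.61 and 8.48 with LPS, and fell in MPI-2, a difference of -1.04 ± 0.17 (adjusted p = 0.000585). Ndufc2 differed by -0.44 ± 0.15 in MPI-2 (adjusted p = 0.0609), 0.95 ± 0.21 above its fall in BMM (adjusted p = 0.00562). Cox6c, which rose in BMM, differed by -0.19 ± 0.12 in MPI-2, a difference of -0.76 ± 0.17 (adjusted p = 0.0069). These 3 differences held under all 21 alternatives.

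The differences of Sdhb and Atp5h were less steady. Sdhb differed by -0.39 ± 0.16 in MPI-2, 0.82 ± 0.23 above BMM (adjusted p = 0.0276), and was not called in 8 of 21 alternatives (all 21 gave 0.66 to 0.99), namely after cyclic loess (0.67) and without BMM mock 1 (0.66) or 2 (0.81), BMM LPS 1 (0.69), MPI-2 mock 2 (0.77) or 3 (0.83), MPI-2 LPS 1 (0.75) or MPI-2 LPS 2 (0.83). Atp5h differed by -0.20 ± 0.12 in MPI-2, 0.61 ± 0.17 above BMM (adjusted p = 0.0263), and was not called in 11 of 21 (0.44 to 0.68), among them quantile normalization (0.44), cyclic loess (0.49) and the fits without BMM mock 2 (0.59), MPI-2 mock 2 (0.61) or 3 (0.53) and MPI-2 LPS 1 (0.62), 2 (0.60) or 3 (0.61). The 3 genes with the higher response in MPI-2 were 1 after cyclic loess, 6 without BMM LPS 2, 5 without BMM LPS 3 and 1 without MPI-2 mock 2 or 3 or MPI-2 LPS 1.

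**Figure D4:**
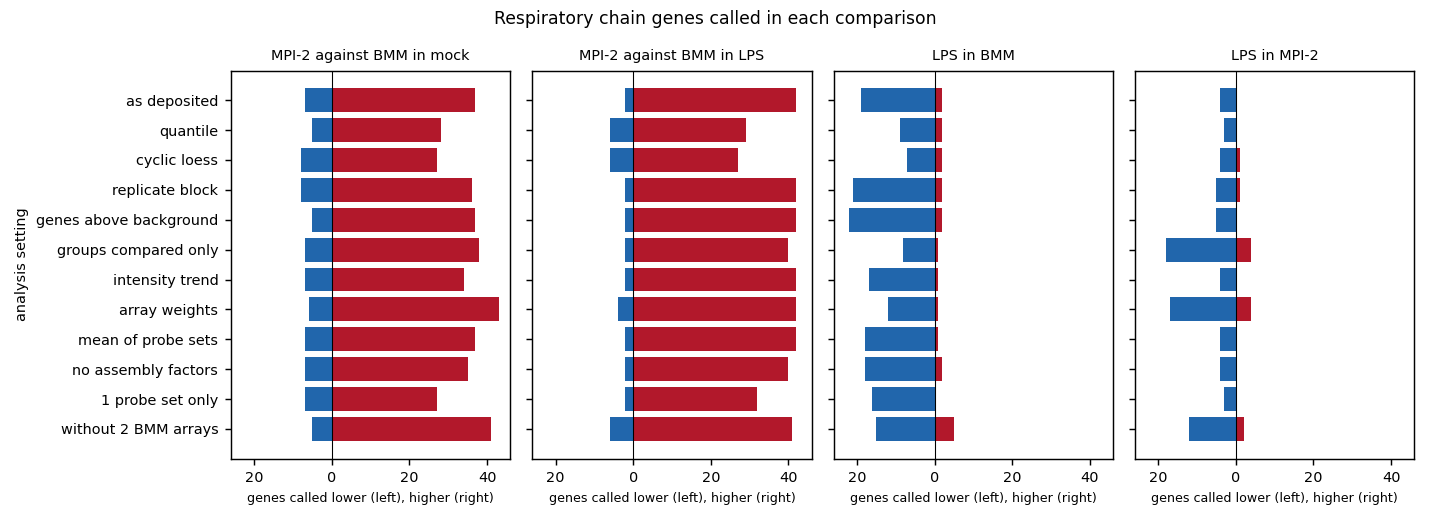
Number of the 89 genes called lower (blue bars, left of 0) and higher (red bars, right of 0) in 4 comparisons (panels) under each analysis setting (vertical axis); the settings with fewer genes are those that leave genes out. More genes are higher than lower between cell types in every setting shown, and the numbers lower with LPS vary with the setting, from 7 to 22 in BMM and from 3 to 18 in MPI-2.

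A larger LPS response than that of any of the 89 genes was seen in a gene the symbols miss. AA467197 encodes a paralogue of Ndufa4, a subunit first assigned to complex I and now counted with complex IV. It read 4.72, 4.02 and 4.33 in BMM mock and 8.13, 8.24 and 7.61 in BMM LPS, and 4.13, 4.17 and 3.87 in MPI-2 mock and 7.76, 7.80 and 7.82 in MPI-2 LPS. No LPS array overlapped a mock array, and the rise was 12.4-fold in BMM (3.64 ± 0.18, adjusted p = 7.87e-10) and 13.3-fold in MPI-2 (3.74 ± 0.18, adjusted p = 1.78e-09). The difference between the responses was 0.10 ± 0.26 (adjusted p = 0.896), and both rises held under all 21 alternatives. Ndufa4 itself read 4.23, 4.57 and 4.35 in BMM mock and 4.25, 4.07 and 3.69 in BMM LPS (-0.38 ± 0.15, adjusted p = 0.0831), and 5.26, 5.32 and 5.07 in MPI-2 mock and 5.36, 5.28 and 5.56 in MPI-2 LPS (0.18 ± 0.15, adjusted p = 0.599). It was higher in MPI-2 than in BMM, by 0.84 ± 0.15 in mock and 1.40 ± 0.15 in LPS, whereas AA467197 differed by -0.30 ± 0.18 and -0.20 ± 0.18, neither called. Their promoter stretches, on the same scheme as above, held none of the 5 words:
Ndufa4 (chr6:11907431-11907580, minus strand): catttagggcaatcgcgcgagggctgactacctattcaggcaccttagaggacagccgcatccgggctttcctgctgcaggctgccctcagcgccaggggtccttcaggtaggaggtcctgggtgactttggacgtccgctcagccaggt
AA467197 (chr2:122637757-122637906, plus strand): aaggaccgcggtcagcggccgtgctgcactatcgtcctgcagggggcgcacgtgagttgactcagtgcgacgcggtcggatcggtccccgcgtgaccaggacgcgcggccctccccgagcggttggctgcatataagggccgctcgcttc

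Cytochrome c and the genes read from mitochondrial DNA complete the chain. Cycs, which carries electrons from complex III to complex IV, rose with LPS in BMM, from 9.52, 9.20 and 9.08 to 9.84, 9.99 and 10.51 (0.84 ± 0.18, adjusted p = 0.00208), and differed by -0.06 ± 0.18 in MPI-2. Only COX2 and ND3 of the subunits encoded in mitochondrial DNA were measured by a probe set naming 1 gene, and neither was called in any comparison: COX2 had means of 10.84 to 11.12 and ND3 of 10.67 to 11.14.

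Other mitochondrial genes were counted beside the respiratory chain, as lists chosen with earlier results known. Between cell types, 33.2% of all genes above background were higher in MPI-2 mock and 36.5% in LPS. The lists themselves were not limited to genes above background. Of 77 genes of the mitochondrial ribosome, which translates the subunits read from mitochondrial DNA, 42 (54.5%) were higher and 0 lower in mock and 44 (57.1%) and 1 in LPS, with medians of 0.64 and 0.79, and Mrpl23 was higher by 2.02 ± 0.14 in mock. Of 19 genes of the citric acid cycle and pyruvate entry, which supply NADH and succinate, 14 (73.7%) and 17 (89.5%) were higher and 0 lower (medians 0.66 and 0.86). Idh3a, a catalytic subunit of isocitrate dehydrogenase, was 8.36-fold higher in mock (3.06 ± 0.22), and Pdha1 of pyruvate dehydrogenase 4.9-fold. Of 24 import genes 18 (75%) and 17 (70.8%) were higher and 1 and 0 lower, Tomm20 by 1.49 ± 0.16 in mock. Of 39 assembly factors outside the symbol rule, 21 (53.8%) and 22 (56.4%) were higher and 6 and 4 lower, with Ttc19, needed for complex III, at 1.14 ± 0.14 in mock. Ubiquinone synthesis (12 genes) had 2 (16.7%) and 4 (33.3%) higher and 1 and 0 lower, below the general share, with a median of 0.00 in mock.

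For LPS in BMM, where 24.5% of genes above background fell and 14.3% rose, the mitochondrial ribosome had 16 lower (20.8%) and 4 higher, the citric acid cycle 4 (21.1%) and 1, import 3 (12.5%) and 3, assembly factors 12 (30.8%) and 2, and ubiquinone synthesis 1 (8.33%) and 0. The shares lower were under the general share except for the assembly factors, and the counts are read as no result about the lists. For LPS in MPI-2, 9.58% of all genes fell and 5.17% rose, and of 12030 genes above background 1861 fell and 965 rose. The same lists had 8 lower (10.4%) and 1 higher, 5 (26.3%) and 2, 1 (4.17%) and 0, 7 (17.9%) and 1, and 1 (8.33%) and 0. Beside genes above background, the share lower was larger for the citric acid cycle and the assembly factors and smaller for the others. These counts too are read as no result about the lists. Idh2, the isocitrate dehydrogenase that uses NADP, fell in both, by -1.08 ± 0.16 in BMM and -1.22 ± 0.16 in MPI-2. In BMM Tmem126b, an assembly factor of complex I, fell (-1.59 ± 0.16), and Cox17, the copper chaperone of complex IV, rose (1.36 ± 0.16). Coq10a, a ubiquinone-binding protein, fell in BMM (-2.23 ± 0.17) and MPI-2 (-0.79 ± 0.17), and Pcx, which carboxylates pyruvate, rose in MPI-2 (1.32 ± 0.15).

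Regulators of these genes were compared last. Of 19, 9 (47.4%) were higher and 0 lower in MPI-2 mock, and 9 and 1 in LPS, beside 33.2% and 36.5% higher among genes above background. With LPS 2 rose and 4 fell (21.1%) in BMM, both under the general 14.3% and 24.5%. In MPI-2 2 rose and 3 fell (15.8%), where of 12030 genes above background 965 rose and 1861 fell. The LPS counts are read as no result about the regulators. Myc, a growth regulator, was higher in MPI-2 by 1.56 ± 0.18 in mock and fell there with LPS (-0.80 ± 0.18). The coactivator Pprc1 was higher by 1.26 ± 0.18 in mock, and Tfam, which packages and transcribes mitochondrial DNA, by 0.74 ± 0.19 in mock and 1.55 ± 0.19 in LPS. Gabpa, the DNA-binding subunit of GABP, rose with LPS in MPI-2, from 5.87, 5.97 and 5.84 to 6.77, 6.75 and 6.68 (0.84 ± 0.17), and in BMM (0.61 ± 0.17), the latter lost without BMM mock 1 (0.44) or BMM LPS 2 (0.45).

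The coactivator Ppargc1b read 4.63, 4.35 and 4.27 in BMM mock, 4.67, 4.41 and 4.16 in BMM LPS, 5.38, 5.40 and 5.42 in MPI-2 mock and 3.34, 4.23 and 3.75 in MPI-2 LPS. It thus fell with LPS in MPI-2 (-1.63 ± 0.19, adjusted p = 2.3e-05), and the difference from BMM was -1.62 ± 0.27 (adjusted p = 0.000651). Its relative Ppargc1a lay under background in every group, at means of 2.45 to 2.72. Esrra, an orphan receptor that works with both, was called in no comparison (0.34 ± 0.17 in mock between cell types). Hif1a, the oxygen-sensing factor, was lower in MPI-2 LPS than in BMM LPS (-0.81 ± 0.18), and its mock difference of -0.34 ± 0.18 did not pass.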

How the data were processed

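The authors deposited log2 values, 1 for each probe set on each array, made by RMA in the package affy per the submitters' processing notes; software versions, and whether the 12 arrays were processed in a single run, are not stated in what was used here. RMA scales arrays to each other, so a difference is relative to other genes and says nothing of total RNA synthesis. The deposited arrays still differ in median (3.60 to 3.79) and interquartile range. Per the labels' protocols, purified newly made RNA was amplified for whole-transcript arrays.

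Of 34760 probe sets, 21640 name 1 gene, 1321 several and 11799 none in the platform annotation. Symbols were updated to RefSeq (GRCm38.p6), which matched 19855 of 19937 genes. Of the 89 genes, 17 had several probe sets (113 over all 89); all probe sets of a gene agreed in sign for 12 of the 17 between cell types in mock, 14 in LPS and 10 for LPS in BMM. Near-identical copies and pseudogenes can share probes. Background (3.36) is the 95th percentile of 1027 olfactory receptor genes.

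The test was limma 3.58.1 (R 4.3.3, lmFit and eBayes) with a mean for each of the 4 groups, no filter and Benjamini-Hochberg adjustment. It was run on simulated data in which each gene had the same spread in all groups, unlike here. The recovery required there was eased after a first run did not reach it. Same-numbered arrays correlated at -0.15 to 0.24 in their deviations from group means, so numbers were not used to pair samples; numbers are those of the titles, and the descriptions number the MPI-2 mock arrays 1 higher, which would give other pairs, not tried here. The rule for naming genes took the 10 largest increases and decreases with groups apart (6 for the difference of responses), a set of subunits, isoforms and regulators, and up to 3 genes of each other list with the smallest adjusted p; a part of these is named. Members, lists and rules were chosen with earlier results of these data known. Alternatives were quantile and cyclic loess scaling, a replicate block, genes above background, fits of the compared groups, an intensity trend, array weights, means of probe sets, members without assembly factors, and each array left out; 2 more, chosen after the data were seen, used members with 1 probe set and left out BMM mock 1 with BMM LPS 3.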

Additional observations from a re-analysis of the deposited data

Results flagged for a closer look

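For 7 genes the response to LPS differed between MPI-2 and BMM by the test of the difference itself (limma, adjusted over all genes). The difference, MPI-2 minus BMM, was -1.04 for Atp5d, -0.76 for Cox6c, 0.95 for Ndufc2, 0.82 for Sdhb and 0.61 for Atp5h. Outside the symbol rule it was -0.91 for Cycs (adjusted p = 0.0255) and -1.62 for Ppargc1b. Cycs lost the call in 7 of 21 alternatives (-1.04 to -0.71), namely with the mean of its probe sets (-0.78) and without BMM mock 2 (-0.87) or 3 (-0.81), MPI-2 mock 1 (-0.78) or 3 (-0.91) or MPI-2 LPS 1 or 2 (both -0.88). Ppargc1b kept it in all 21.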

How the results depend on the processing

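The numbers of the 89 genes called higher in MPI-2 ranged from 29 to 40 in mock and from 36 to 44 in LPS when 1 array was left out, and those lower from 3 to 8 and from 0 to 5. For LPS in BMM 1 to 3 were higher and 13 to 22 lower, for LPS in MPI-2 0 to 2 and 3 to 7, and for the difference of responses 1 to 6 and 2 to 3. After quantile normalization 9 were lower with LPS in BMM and 6 lower between cell types in LPS. Calls lower among all genes were 2597 and 3658 there, against 3061 and 4312 as deposited. After cyclic loess the numbers were 7 lower with LPS in BMM, 1 higher with LPS in MPI-2, 1 higher for the difference, and 27 higher and 6 lower between cell types in LPS. Among all genes they were 2427, 1182, 1200, and 3601 and 3554 in the same order. Fits of the compared groups gave 1 higher and 8 lower with LPS in BMM and 4 and 18 in MPI-2. Array weights gave 1 and 12, 4 and 17, and 4 lower between cell types in LPS. With LPS in MPI-2, calls among all genes grew too in these 2 settings, from 1910 lower to 3172 and 3243. With LPS in BMM, calls lower among all genes went from 3061 to 2143 and 2781. The intensity trend and the mean of probe sets gave 1 higher with LPS in BMM. With a replicate block, which the check of pairing does not call for, LPS in BMM had 2 higher and 21 lower, LPS in MPI-2 1 and 5, the difference 3 and 3, and the cell types 36 and 8 in mock and 42 and 2 in LPS. The 2 alternatives chosen after the data were seen gave 0 higher with LPS in BMM and 1 lower for the difference (members with 1 probe set), and, without BMM mock 1 and BMM LPS 3, 5 higher with LPS in BMM, 2 higher and 12 lower in MPI-2, 5 higher and 4 lower for the difference and 6 lower between cell types in LPS. The sign turned for Uqcrfs1 with LPS in BMM (-0.04; -0.22 to 0.29 with 1 array left out; 0.46 without BMM mock 1 and BMM LPS 3), for Cox6c between cell types in LPS (0.40; -0.026 after cyclic loess) and for Cycs between cell types in LPS (-0.55; 0.24 with the mean of its probe sets). Among calls of named genes, every alternative kept 21 of 33 between cell types in mock, 21 of 29 in LPS, 3 of 5 differences of responses and, with LPS, 8 of 18 in BMM and 2 of 4 in MPI-2. The cause of these shifts was not tested.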

Other observations

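Probe sets that name a respiratory chain gene together with another gene are set out here as values only. The probe set for Cox7c and Gm12338 with the highest level had means of 8.70 ± 0.19 in BMM mock, 8.27 ± 0.18 in BMM LPS, 9.02 ± 0.071 in MPI-2 mock and 8.92 ± 0.024 in MPI-2 LPS (SD, n = 3). The probe set for Ndufb4 and Ndufb4b with the highest level had means of 7.44 ± 0.20, 6.62 ± 0.15, 6.69 ± 0.086 and 6.11 ± 0.048 in the same order.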
